A study of Mus musculus with 15 samples.

Results

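The 9 genes described here (P2ry12, Tmem119, Cx3cr1, Csf1r, Siglech, Trem2, Tyrobp, Selplg and Fcrls) are markers of homeostatic microglia, the resident macrophages of the brain. They were listed by symbol, and all 9 were found among the 26145 genes of the count tables. The cells came from 15 single-cell RNA-seq libraries of the prefrontal cortex (PFC) of male C57BL/6N mice. Adult mice (called P60 here, 8 to 10 weeks in the labels) had self-administered intravenous cocaine or saline and were taken during maintenance of that behaviour, after 48 h of withdrawal or after 15 days of withdrawal, and each of the 6 groups had 2 libraries of pooled tissue from 2 mice each. The other 3 libraries were from P21 mice (3 weeks in the labels) with no self-administration, and 4 mice were used for them in all. With 2 mice pooled for each library, as stated for the replicates, 4 mice cannot fill 3 separate pools. Unless the P21 libraries were pooled otherwise, some of them share animals, and the p-values with age are then too small. How the P21 mice were divided was not given in the sources used here. The adult libraries keep the numbers 1 to 12 of their labels. The paper gives P60 as the age at catheter implantation, so the adult mice were older when taken. The interval was longest in the groups of 15 days of withdrawal. The tissue tag of the labels names another region (NAc) than the titles and the source names (PFC). Each adult library came from its own pair of mice, and the p-values measure the spread between libraries.

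In the healthy brain, microglia survey the tissue with motile processes and depend on a survival signal from the cells around them. That signal is received by Csf1r, the receptor tyrosine kinase for the cytokines Csf1 and Il34. P2ry12 is a receptor for ADP that steers the processes towards sites of damage, and Cx3cr1 is the receptor for the neuronal chemokine fractalkine (Cx3cl1). Trem2 is a receptor for lipids and lipoproteins that has no signalling motif of its own and works through the adaptor Tyrobp (also called DAP12), and Siglech is a sialic acid binding lectin that uses the same adaptor. Selplg is the ligand of the selectins, Fcrls is an Fc receptor-like scavenger receptor, and Tmem119 is a membrane protein used to tell microglia from blood-derived macrophages.

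Since the 9 genes were high in the same cells, the 250 bases upstream of the annotated start were examined where RefSeq (GRCm38.p6) held them, which was the case for 5 of the 9 (P2ry12, Cx3cr1, Siglech, Trem2 and Fcrls). The sequence GAGGAA, or TTCCTC on the other strand, the core bound by the myeloid transcription factor PU.1 (encoded by Spi1), was searched on both strands. It was present in 2 of the 5, and in 23.3% of all 32851 promoters of the same length (7639). Of these sequences 3 are shown, 5′ to 3′ on the strand of the gene, namely the pair with a match, in capitals, and that of P2ry12, which held no GAGGAA.
Trem2, GRCm38.p6 chr17:48346151-48346400, plus strand: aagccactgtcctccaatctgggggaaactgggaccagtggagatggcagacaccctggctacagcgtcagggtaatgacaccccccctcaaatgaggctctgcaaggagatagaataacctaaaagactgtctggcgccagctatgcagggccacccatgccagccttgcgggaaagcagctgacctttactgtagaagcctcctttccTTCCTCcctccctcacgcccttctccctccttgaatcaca
Fcrls, GRCm38.p6 chr3:87263525-87263774, minus strand: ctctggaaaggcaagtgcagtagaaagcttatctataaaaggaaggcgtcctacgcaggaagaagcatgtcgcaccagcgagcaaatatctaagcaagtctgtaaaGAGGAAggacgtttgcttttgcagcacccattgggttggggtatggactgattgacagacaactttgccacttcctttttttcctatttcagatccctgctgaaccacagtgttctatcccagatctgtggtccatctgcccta
P2ry12, GRCm38.p6 chr3:59262986-59263235, minus strand: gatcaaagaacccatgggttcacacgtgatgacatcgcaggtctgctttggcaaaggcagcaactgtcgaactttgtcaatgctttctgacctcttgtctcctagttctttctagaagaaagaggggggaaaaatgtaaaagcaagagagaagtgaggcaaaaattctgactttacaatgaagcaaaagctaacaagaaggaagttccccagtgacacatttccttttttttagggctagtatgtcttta
The match of Trem2 began 40 bases before the start, on the reverse strand, and that of Fcrls 144 bases before it, on the forward strand. Another form, AGGAAG or CTTCCT, which shares 5 bases with GAGGAA where they overlap, was in 3 of the 5, P2ry12 among them, and in 29.5% of all promoters. A shorter form of the core, GGAA or TTCC, which lies within both, occurred in all 5 and in 93.4% of all promoters.

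In the genome build the authors counted on (mm9, NCBIM37), the genes lay on 6 chromosomes. P2ry12 spanned chr3:59020193-59066753 on the minus strand, inside Med12l, which runs on the opposite strand, with P2ry13 5388 bases away. Fcrls lay on the same chromosome at chr3:87054680-87067660. Tmem119 (chr5:114243738-114250525) and Selplg (chr5:114267807-114280510) were neighbours on the minus strand with 17281 bases between them. Tyrobp (chr7:31198807-31202596) was followed after 135 bases by Hcst, which encodes another signalling adaptor, and Siglech lay further along at chr7:63023548-63034295. Cx3cr1 spanned chr9:119957811-119977400 and Trem2 chr17:48485726-48493472, while Csf1r on chromosome 18 overlapped Hmgxb3 on the opposite strand. Coordinates of the promoters above are of the other build and do not line up with these.

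The retained cells of a library held 8375172 to 42892922 UMIs (unique molecular identifiers, each a captured RNA molecule), with medians of 3426 to 11334.5 UMIs a cell. The authors' cell classes were used, and levels are UMI counts summed over the cells of a class in a library, scaled to the total of that sum (CPM). The adult microglia class held 1449 cells, 36 to 195 a library. The 4 libraries of 15 days stood apart from the other 8 in that class. They held 36 to 89 microglia each against 77 to 195, and their microglia carried more RNA of neurons and endothelial cells. The summed level of 5 excitatory neuron markers there was 1222 to 2109 CPM against 94.0 to 772, with Snap25, a synaptic protein gene, at 724 to 1334 against 55.2 to 543 CPM. The sum of 4 endothelial markers was 136 to 261 against 18.4 to 115 CPM, while oligodendrocyte markers (61.5 to 322 against 46.5 to 409 CPM) and astrocyte markers (238 to 859 against 258 to 507 CPM) overlapped. Across libraries, 747 of the 34602 distinct cell barcodes occurred in more than 1 library, at most 27 in any pair of libraries, and a single barcode was a microglia in both.

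The P21 microglia class needs the same care, because the authors named P21 cells by their correlation with adult clusters and the deposited class and cluster often disagreed. Of its 329 cells (238, 47 and 44 in the 3 libraries), 182 (55.3%; 149, 21 and 12) also carried a microglia cluster. The other 147 carried the cluster name of neurons (75 cells, median 9464 UMIs against 2851 in the agreeing cells), endothelial cells (33), the oligodendrocyte lineage (25) or astrocytes (14). In the adult class, 1448 of 1449 agreed. The summed level of 20 other microglia markers such as C1qa and Aif1 was 12657 to 24131 CPM in the P21 class, 36303 to 49086 CPM in its agreeing cells and 48933 to 80878 CPM in the adult saline libraries. Summed oligodendrocyte markers were 3017 to 6489, 315 to 2779 and 46.5 to 322 CPM in the same order. The age comparison of the 9 genes is therefore given for the class and for the agreeing cells.

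Each of the 9 genes was highest in microglia, by about 2 orders of magnitude. At P60 the purine receptor P2ry12 averaged 2548 ± 865 CPM (SD, n = 12 libraries) in microglia and 22.8 CPM in the next class, newly formed oligodendrocytes (NF Oligo). Trem2 averaged 3033 ± 490 CPM against 11.8 in NF Oligo, and its adaptor Tyrobp 5825 ± 1070 against 25.9. The ratio to the next class ran from 94.3 for Siglech to 257 for Trem2, and NF Oligo was next in the order for all 9. For each gene the lowest microglia library lay above the highest library of any of the 7 other classes. Classes were built from expression, so these levels are a description without a test.

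The levels of the remaining members in adult microglia were 1575 ± 275 CPM for Cx3cr1, 1958 ± 287 for Csf1r, 1309 ± 309 for Tmem119, 1016 ± 192 for Siglech, 2166 ± 620 for Selplg and 1855 ± 471 for Fcrls (SD, n = 12). Relative to its mean, Csf1r varied least between libraries and P2ry12 most. In the other classes, leaving NF Oligo aside, the means were between 0.43 CPM (Siglech in excitatory neurons) and 23.6 CPM (Tyrobp in endothelial cells). The position of NF Oligo rested on a few cells: 5 of its 336 cells, from 4 libraries, had UMIs of at least 5 of the genes and held 90.7% of that class's UMIs for them. Those 5 cells had a median of 8705 UMIs against 5543.5 in the class. P2ry12 in astrocytes averaged 10.7 CPM at P60 (56 UMIs in 53 of 1498 cells) and 0.521 CPM at P21. The P21 value rested on 2 UMIs in 405 cells, and the difference was not tested.

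**Figure D1:**
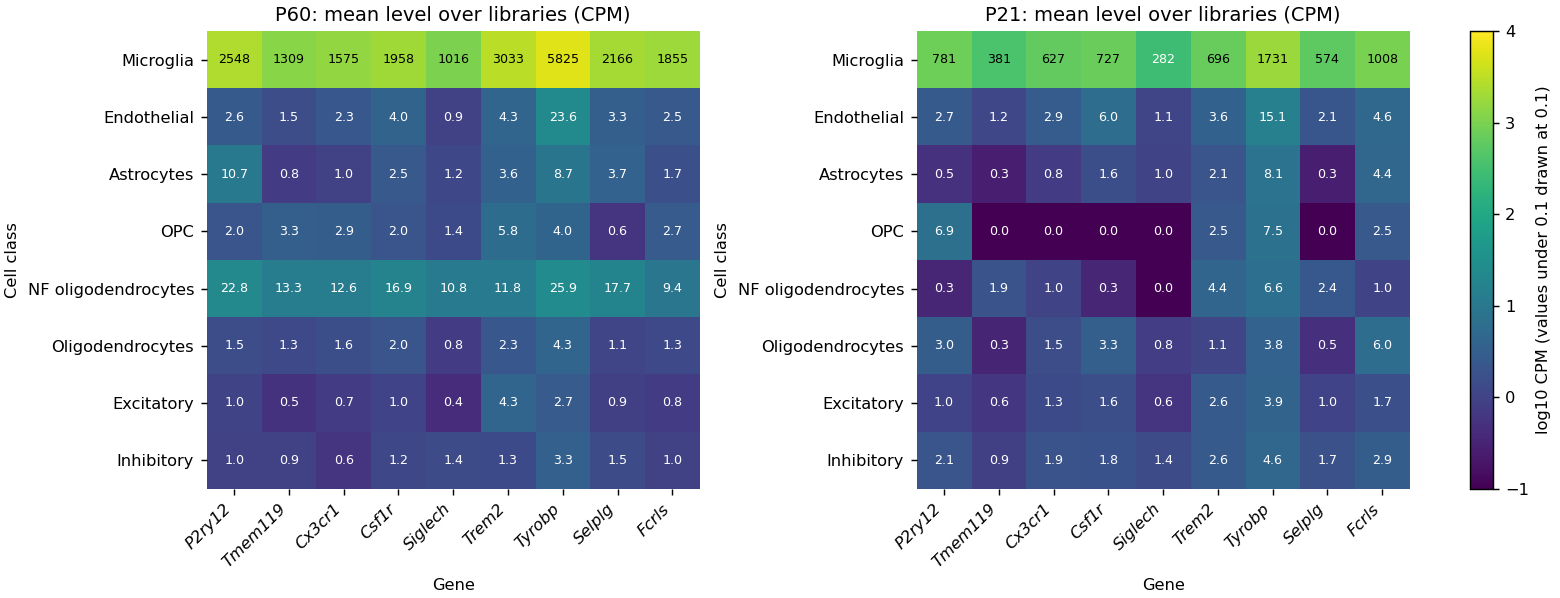
Mean level over libraries (log10 CPM, colour scale) of the 9 genes (columns) in the 8 cell classes (rows) at P60 (12 libraries) and P21 (3 libraries). The microglia row stands out at both ages, with P60 means between 1016 CPM (Siglech) and 5825 CPM (Tyrobp), and NF Oligo follows at 9.37 to 25.9 CPM at P60.

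Single microglia carried most of the set. At P60, 89.2% of microglia had at least 1 UMI of Siglech, 95.7% of P2ry12, 97.7% of Trem2 and 99.7% of Tyrobp. With each cell thinned to 2000 UMIs these shares were 76.7%, 92.8%, 95.3% and 99.0%. In endothelial cells, which are not known to use these genes, the unthinned shares were 0.421%, 1.15%, 1.60% and 3.90% at a median of 4516.5 UMIs a cell against 3214 in microglia. The median thinned microglia with matching class and cluster had all 9 genes at P60 (54.1% of 1448 cells), and 4 cells had none of them. At P21 the median was 8 in the 179 agreeing cells deep enough to thin (26.3% with all 9) and 5 in the 145 others. Tmem119 and Siglech were the members most often missing from the agreeing P21 cells, with a UMI in 114 and 115 of the 179 thinned cells (63.7% and 64.2%), against 82.5% and 76.7% at P60.

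Within the adult class, 8 microglia clusters of the authors differed in level by 1.47 times for Tyrobp (4776 to 7031 CPM) to 2.12 times for Siglech (621 to 1316 CPM). Cluster 1 was lowest for 8 of the 9, for example P2ry12 at 1636 CPM against 3246 in cluster 5. That cluster also held blood leukocyte genes, with Plac8 at 1548 and the monocyte receptor Ccr2 at 259 CPM, and the 10 leukocyte markers summed to 3595 CPM there against 0.0 to 46.1 in the others. Tyrobp was lowest in cluster 3, where Snap25 reached 1371 CPM. Clusters 1, 2 and 4 held border macrophage genes, whose summed level was 1034 to 1196 CPM against 85.8 to 138 in the other 5 clusters. P2ry12 was at 2579 and 3162 CPM in clusters 2 and 4. The clusters were built from expression, in which the 9 genes may have taken part, so no test was made.

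Outside the 9 genes themselves, the genes whose levels followed each member most closely were ranked by the correlation of log2(CPM + 1) over 93 sums of a class in an adult library. These points share libraries, and the step from microglia to other classes dominates them, so the values describe likeness of the class pattern. Among the genes closest to P2ry12 were Ctss, the protease cathepsin S (Pearson r = 0.954), and the related receptor P2ry6 (0.938). Of these genes, Cx3cr1 was closest to the complement gene C1qa, AF251705 and Susd3 (all 0.943), and Csf1r to the phosphatase Ptpn6 (0.956), Gpr183 (0.952) and Ly86 (0.951). Trem2 was nearest to C1qc (0.952), Bcl2a1b (0.938) and AF251705 (0.935). Its adaptor Tyrobp was nearest to the chemokine Ccl3 (0.952), Ptpn6 (0.940) and C1qb (0.940). Ccl3 is among the genes known to be raised by cell dissociation that are compared below. Siglech went with the Fc receptor Fcgr1 (0.962), Clec5a (0.959) and the interleukin receptor Il10ra (0.958), and Tmem119 with Il1a (0.956), Clec5a (0.956) and P2ry6 (0.955). Selplg followed Clec5a (0.948), P2ry6 (0.944) and the complement receptor C5ar1 (0.943), and Fcrls the chemokine Ccl4, Gpr183 and Cd84 (all 0.958). Among the members themselves r ranged from 0.900 (Tyrobp with Tmem119) to 0.960 (Fcrls with Tmem119), and some members were closer to each other than to any of the genes named, as in the case of Fcrls and Tmem119.

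The ligands of the members were highest in other cells, apart from Csf1. Cx3cl1, the ligand of Cx3cr1, was highest in excitatory neurons (257 ± 23.8 CPM, n = 12) and next in inhibitory neurons (159 ± 31.6). Il34, a ligand of Csf1r, was highest in endothelial cells (164 ± 25.4) and next in excitatory neurons (106 ± 8.69), and the other ligand of that receptor, Csf1, was at 45.5 ± 14.8 CPM in microglia and 27.7 ± 7.37 in oligodendrocytes. Apoe and Clu, lipoprotein components bound by Trem2, were highest in astrocytes (6927 ± 5455 and 5588 ± 916 CPM). The selectins Selp and Sele averaged 0.848 and 4.07 CPM in endothelial cells. Il34 in endothelial cells was higher in the P60 saline libraries than at P21 (log2 fold change 0.91, SE 0.11, adjusted p = 0.000125 by edgeR's quasi-likelihood test). Cx3cl1 in excitatory neurons differed by −0.53 (SE 0.09, adjusted p = 0.000625), short of a 1.5-fold change.

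The first comparison asked how the genes differed between adolescence and adulthood. The adult saline mice had also had food training, catheter surgery and saline self-administration, so age and that procedure cannot be told apart. In matching P21 to adult cells, the authors used a rank correlation meant to reduce bias from differences in sequencing technology. Any such difference between the P21 and adult libraries cannot be told apart from age either, in microglia or in other classes. In the microglia class all 9 were higher in the 6 adult saline libraries than in the 3 P21 libraries, by 2.44-fold (Fcrls) to 5.64-fold (Trem2), although 6 of them (P2ry12, Tmem119, Cx3cr1, Csf1r, Tyrobp and Fcrls) turned to below 0 when scaled to the other microglia markers. That scaling moved all genes, to a median log2 fold change of −2.21. A gene was called when its adjusted p by edgeR's quasi-likelihood test, taken over all genes tested, was under 0.05 and its change was over 1.5-fold. In this comparison 42.4% of the 4478 genes tested were called and 23.0% were called higher at P60. The median log2 fold change of the 9 was 2.19, and that of all genes was −0.0024. Of the 20 other microglia markers 19 were called higher (median 2.04), and of 16 signalling genes that act downstream of the receptors, such as Syk, Plcg2 and Inpp5d, 14 were called higher (median 1.81). The called markers of oligodendrocytes (4 of 4 tested, median −4.78), endothelial cells (3 of 3) and excitatory neurons (3 of 4) were lower at P60. Border macrophage markers (6 of 6 tested, median 1.33) and 14 of 19 genes known to be raised by cell dissociation, such as Fos and Ccl3 (median 1.61), were called higher. With cells holding border macrophage or leukocyte UMIs left out, all 9 genes stayed called higher. The part of the other lists in the members' result was not tested beyond the other cell choice and scaling given below. The summed level of the dissociation genes was 12787 to 25209 CPM at P21 and 31204 to 47945 CPM in the adult saline libraries.

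P2ry12 was at 710, 992 and 643 CPM in P21 libraries 1 to 3 and at 2639, 3079, 3934, 2952, 1451 and 1770 CPM in adult saline libraries 2, 3, 5, 7, 11 and 12. No P21 library reached an adult one, and the log2 fold change was 2.20 (SE 0.39, adjusted p = 0.00180). Trem2 was at 955, 724 and 409 CPM against 3266, 2758, 3185, 3664, 2506 and 2510 CPM, a log2 fold change of 2.49 (SE 0.34, adjusted p = 0.000798). Its P21 values likewise lay below every adult library. Fcrls was at 1152, 1205 and 669 CPM against 1655, 1890, 2251, 2556, 1400 and 1292 CPM, which is closer than for the other genes (log2 fold change 1.29, SE 0.33, adjusted p = 0.0108). The values of the other 6 genes did not overlap either, and their log2 fold changes were 1.66 for Cx3cr1, 1.81 for Csf1r, 2.14 for Tyrobp, 2.19 for Tmem119, 2.26 for Siglech and 2.39 for Selplg (SE 0.26 to 0.37). Of the 8424 genes with a mean of at least 10 CPM, 8.12% were higher in every adult saline library than in every P21 library.

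When only cells with matching class and cluster were kept, an alternative chosen after the data were seen, none of the 9 genes was called and 26 of 3993 genes were (0.651%). Unadjusted p was under 0.05 for 5 of the 9 and for 466 of all genes. Of the 20 other microglia markers, the 16 signalling genes and the 19 dissociation genes, 0 were called in these cells. P2ry12 was then at 1376, 2114 and 1813 CPM at P21, with 2 of the 3 inside the adult range (log2 fold change 0.79, 95% interval 0.06 to 1.52, adjusted p = 0.394). Selplg was at 1140, 1283 and 828 CPM, below the lowest adult library at 1359 (1.19, 0.48 to 1.91, adjusted p = 0.142). Trem2 was at 1942, 1686 and 1656 CPM, below the lowest adult value of 2506 (0.92, 0.38 to 1.45, adjusted p = 0.129), and Siglech was at 733, 546 and 552 CPM, below 820 (0.87, 0.32 to 1.41, adjusted p = 0.168). These 3 were the members whose groups still did not overlap, where 3.12% of the genes compared showed the same order. Tmem119 (0.88), Tyrobp (0.60), Csf1r (0.51) and Cx3cr1 (0.38) overlapped. The size of the age difference in the class thus depended on cells for which class and cluster disagree.

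**Figure D2:**
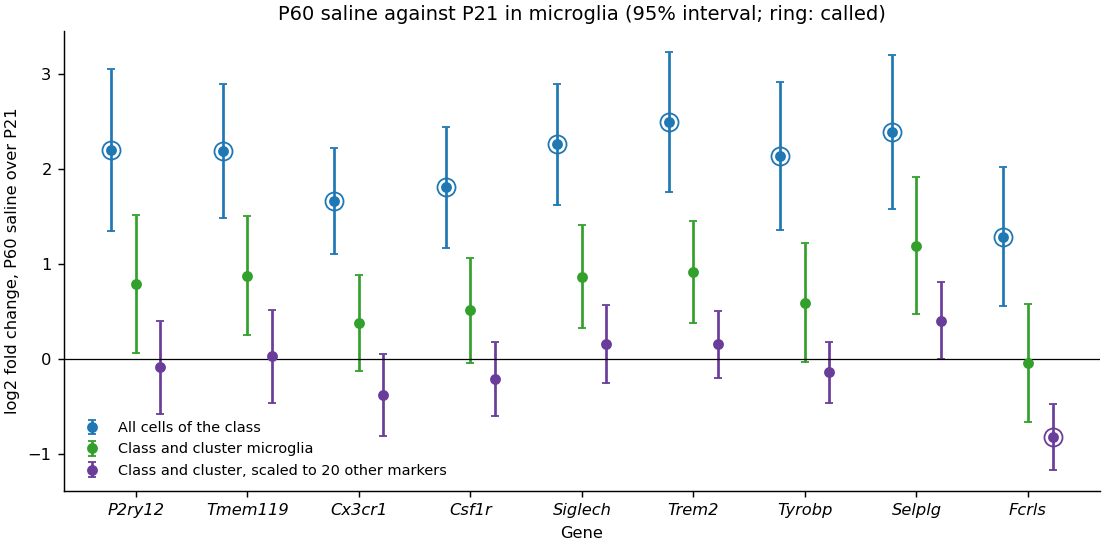
Log2 fold change of P60 saline over P21 in microglia for the 9 genes, with 95% intervals, in the authors' class, in cells with matching class and cluster, and in the latter with scaling to 20 other microglia markers. Rings mark called genes. All 9 lie above 0 in the class, none is called in the matching cells, and with marker scaling only Fcrls is called, at −0.82.

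In the matching cells Fcrls was at 2275, 2423 and 1616 CPM at P21 and 1292 to 2556 CPM in adult saline libraries (log2 fold change −0.04, 95% interval −0.66 to 0.58). To compare the members with the rest of the microglial RNA, the same cells were also scaled to the summed UMIs of the 20 other markers, again after the data were seen. In the whole class this scaling put the 9 genes between −0.96 (Fcrls) and 0.33 (Trem2), and of them called only Fcrls. There 3907 of the 4478 genes tested were called, and the median of all genes was −2.21, further below 0 than Fcrls. In the matching cells Fcrls was likewise lower at P60 on that scale, the only member called (−0.82, SE 0.16, 95% interval −1.17 to −0.47, adjusted p = 0.0229), where 1.53% of the genes tested were called lower and the median of all genes was −0.51. The other 8 lay between −0.38 (Cx3cr1) and 0.40 (Selplg), and none was called. Per 1000 UMIs of the 20 markers, Fcrls was at 46.3, 55.6 and 44.5 in P21 libraries 1 to 3 (149, 21 and 12 cells). It was at 24.6 to 33.3 in the 12 adult libraries. The share of all genes with separate P21 and adult values on this scale was not counted, so these values only describe. Of the 20 markers, C1qa was at 10426, 3943 and 3469 CPM and C1qb at 9248, 7720 and 6346 CPM in the 3 P21 libraries. Fcrls made up 13.8% of the UMIs of the 9 genes in these P21 cells and 8.61% in adult microglia.

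**Figure D3:**
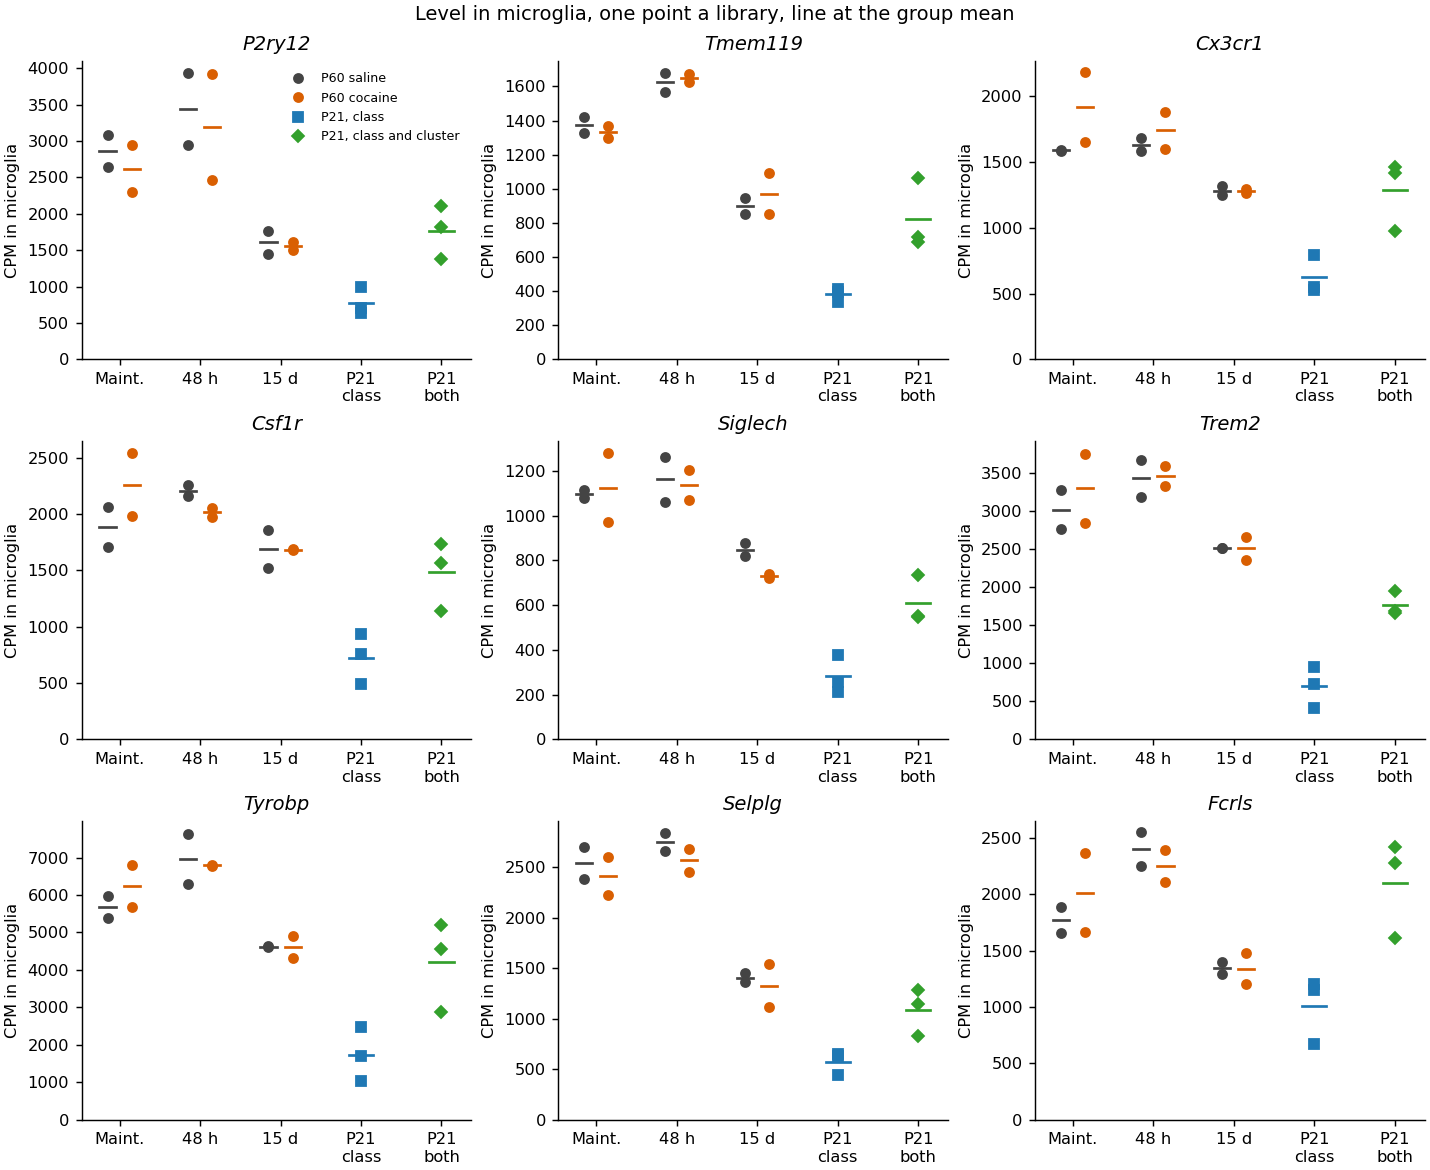
Level of each of the 9 genes in microglia (CPM), 1 point for each library and a line at the group mean, for the adult groups by time point and treatment, the P21 class and the P21 cells with matching class and cluster. The 15 day libraries lie below the earlier adult ones for 8 of the 9 genes, before any scaling to microglia markers, and the P21 class lies below the adult saline libraries for all 9.

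The second comparison asked whether cocaine changed the genes in adult microglia. None of the 9 was called in any of the comparisons of cocaine with saline, and none reached an unadjusted p under 0.05. At maintenance 2 of 5258 genes were called (0.038%), the border macrophage genes F13a1 and Mrc1, both lower with cocaine. At 48 h, at 15 days, over the 3 time points together and for the interaction of treatment and time point 0.0% were called, and 153, 219, 173 and 162 genes had an unadjusted p under 0.05 (171 at maintenance). DESeq2 called 7, 0 and 0 genes at the 3 time points, 0 over all 3 and 3 for the interaction, with none of the 9 among them.

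P2ry12 was at 2302 and 2942 CPM in the cocaine libraries and 2639 and 3079 in the saline libraries of maintenance, at 3918 and 2459 against 3934 and 2952 at 48 h, and at 1510 and 1615 against 1451 and 1770 at 15 days. Treated and control libraries interleaved at each time, and over all 3 the log2 fold change was −0.08 (95% interval −0.35 to 0.18). Cx3cr1 at maintenance was at 2186 and 1653 CPM with cocaine and 1586 and 1596 with saline, the widest difference among the members at that time (0.31, −0.09 to 0.72, adjusted p = 1 by edgeR). Csf1r, at 2544 and 1978 against 2059 and 1712 CPM, differed by 0.30 (−0.11 to 0.71). At 48 h the 9 values ran from −0.12 (Csf1r) to 0.11 (Cx3cr1), and at 15 days from −0.23 (Siglech, −0.66 to 0.19) to 0.09 (Tmem119). Averaged over the time points all 9 lay between −0.08 and 0.13 with SEs of 0.10 to 0.13, and no 95% interval went beyond −0.35 or 0.37. None of the 16 signalling genes, the 5 tested ligands or the 20 other microglia markers was called at any time point.

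The libraries of 15 days differed from the earlier ones in both treatments. This comparison was added after the values had been seen. Of the 9 genes 8 were called lower at 15 days, 4 of which (Cx3cr1, Siglech, Trem2 and Tyrobp) turned to above 0 when scaled to the other microglia markers. That scaling moved all genes, to a median of 0.87, and called none of the 9. With the main scaling 29.6% of the 5258 genes tested were called and 10.8% were called lower. Selplg was at 1111, 1538, 1359 and 1451 CPM in libraries 9 to 12 and at 2228 to 2835 CPM (median 2627) in the other 8 (log2 fold change −1.16, SE 0.13, adjusted p = 1.95e-06). P2ry12 was at 1451 to 1770 CPM against 2302 to 3934 CPM, median 2947 (−1.17, SE 0.14, adjusted p = 4.48e-06). Neither gene overlapped between the time points. Smaller differences were called for Tmem119 (−0.92), Fcrls (−0.89), Siglech (−0.77), Tyrobp (−0.72), Cx3cr1 (−0.67) and Trem2 (−0.64), and Csf1r (−0.56, adjusted p = 0.00152) stayed under 1.5-fold. For 8 of the 9 (all but Csf1r) every earlier library lay above every 15 day library, as for 2.55% of the 7439 genes with a mean of at least 10 CPM.

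Other genes moved with it. Of the other 20 microglia markers 18 were called lower (median −0.84), and of the ligands Apoe, Cx3cl1, Il34 and Clu were called higher in the microglia sums, at log2 fold changes of 2.07, 2.32, 2.41 and 1.43. The 4 tested markers of excitatory neurons and the 3 of endothelial cells were all called higher, as were 2 of 2 inhibitory neuron markers (Gad1 and Snap25, the latter also on the excitatory list, median 3.44) and 2 of 3 astrocyte markers (median 1.24), while 1 of 3 oligodendrocyte markers was (median −0.15). Of the 19 dissociation genes 8 were called lower (median −0.51), and their summed level was 28845 to 39881 CPM at 15 days against 39417 to 47945 CPM before. When scaled to the 20 microglia markers, none of the 9 was called (median of all genes 0.87). P2ry12 (−0.32, adjusted p = 0.0734) and Selplg (−0.31, adjusted p = 0.0131) were then lowest, and Csf1r was at 0.30 (adjusted p = 0.0218), under 1.5-fold. The part of RNA from other cells and of the dissociation genes in the class-level result was not tested beyond this scaling. The time point, the age of the mice, the depth of the libraries and any preparation they shared cannot be told apart.

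**Figure D4:**
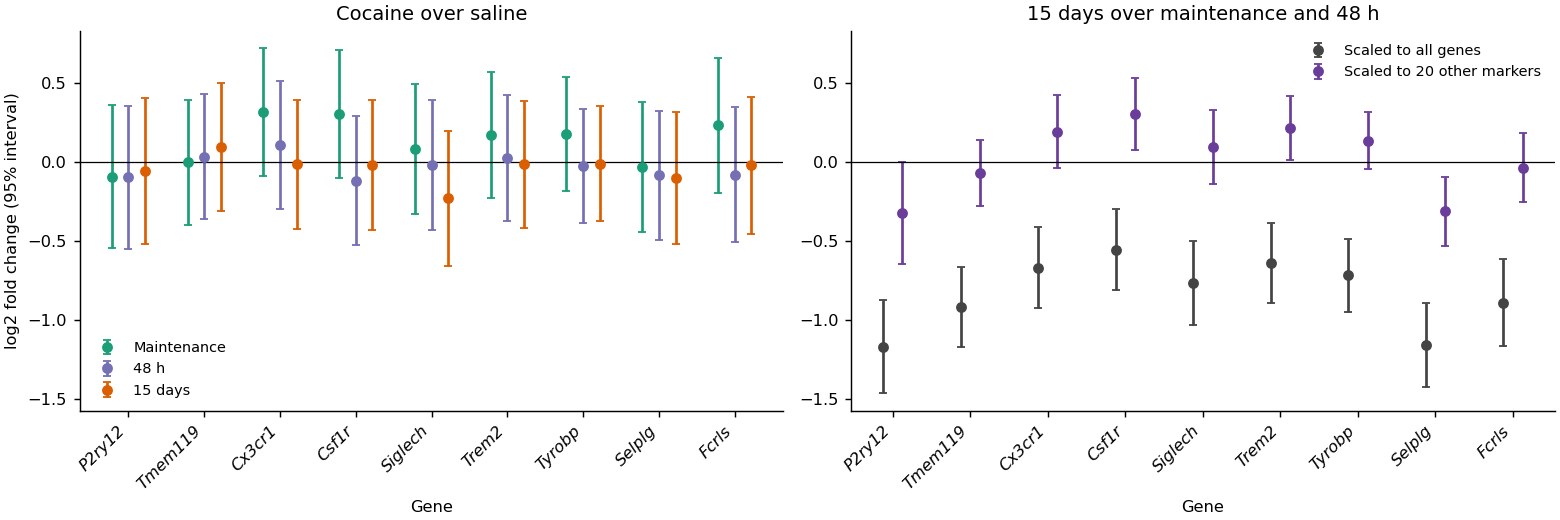
Log2 fold change in adult microglia with 95% intervals for the 9 genes, on the left cocaine over saline at each of 3 time points, on the right 15 days over maintenance and 48 h with the main scaling and with scaling to 20 other microglia markers. Every interval on the left spans 0. On the right the main values run from −1.17 (P2ry12) to −0.56 (Csf1r), and the scaled ones from −0.32 to 0.30.

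In excitatory neurons the 9 genes averaged 0.43 (Siglech) to 4.34 CPM (Trem2) at P60, and 7 of the 9 had enough counts to test (not Tmem119 or Siglech). Trem2 was called higher at P60 than at P21, by 0.82 on the log2 scale (SE 0.28, 95% interval 0.21 to 1.44, adjusted p = 0.0354), where 18.1% of genes were called and 8.01% were called higher. It was at 4.92, 3.50, 3.69, 4.53, 5.66 and 5.71 CPM in the 6 adult saline libraries and at 4.32, 1.46 and 2.02 CPM at P21, so that P21 library 1 lay within the adult range. The call was lost without adult library 2, 7, 11 or 12 and without P21 library 2 or 3. With each library left out in turn the value ran from 0.57 to 1.49, the latter without P21 library 1. Fcrls differed by −1.18 (adjusted p = 0.0679). That value rested on P21 library 1, without which it was 0.0032, while without adult library 12, P21 library 2 or P21 library 3 it was −1.45 to −1.50 and passed the threshold. Cocaine against saline called none of the 7 at maintenance or 48 h, where 0.0% of 13172 genes were called, or at 15 days, where 0.714% were. An unadjusted p under 0.05 was found for 871, 647 and 905 genes at these time points, and DESeq2 called 2, 5 and 163 genes, none of them a member. At maintenance Tyrobp (1.66, unadjusted p = 0.0172 by edgeR) and Selplg (1.58, unadjusted p = 0.0310), and at 15 days Tyrobp (−0.83, unadjusted p = 0.0274), passed only before adjustment. With no filter on low counts, Tyrobp was called lower with cocaine at 15 days (−0.82), at 3.35 and 1.44 CPM in the cocaine libraries and 3.60 and 5.41 CPM in the saline libraries. These levels rested on 112 and 41 Tyrobp UMIs against 117 and 107. Across the alternatives 0 to 387 of all genes tested were called in that comparison. In endothelial cells Csf1r, Trem2 and Tyrobp could be tested with age and none was called by edgeR or DESeq2, where 13.4% of 10599 genes were called and 3423 had an unadjusted p under 0.05 (none of the 3 among them).

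In excitatory neurons Trem2 took a larger part of the summed UMIs of itself and its adaptor than in microglia. In adult microglia Trem2 made up 34.2% of the summed Trem2 and Tyrobp UMIs (exact 95% interval 33.7% to 34.7%, counting error only). In adult excitatory neurons it made up 61.6% (59.0% to 64.1%, 889 Trem2 and 554 Tyrobp UMIs), while in inhibitory neurons it was 32.0% (19.5% to 46.7%). The share in oligodendrocyte precursors was as high, at 62.1%, but rested on 18 Trem2 and 11 Tyrobp UMIs (42.3% to 79.3%). Endothelial cells lay on the other side of microglia, at 15.8% (12.7% to 19.3%, 79 Trem2 and 422 Tyrobp UMIs). Those Tyrobp UMIs lay in 139 of 3566 cells, and the level of Tyrobp ran from 3.34 to 72.0 CPM over the 12 adult libraries. The interval covers neither spread. Tyrobp made up 52.3% of the endothelial UMIs of the 9 genes, against 27.1% in microglia. As a share of the 9 genes, Trem2 was 28.4% to 51.2% in excitatory neurons and 12.8% to 15.9% in the microglia of the same library, higher in 12 of 12 libraries. At P21 the share of the pair was 38.6% (33.8% to 43.6%) against 28.1% in the microglia class. Trem2 had a UMI in 761 adult excitatory neurons (5.27%, or 0.844% with cells thinned to 2000 UMIs), and 670 of them had no UMI of another member. At the thinned depth the share was 0.841% in endothelial cells, 0.697% in oligodendrocytes, 1.04% in oligodendrocyte precursors and 0.170% in inhibitory neurons. The other 8 members were each less frequent in thinned excitatory neurons than in endothelial cells, for example P2ry12 at 0.187% against 0.477% and Tyrobp at 0.650% against 2.27%, while Trem2 was at about the same share in both.

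The level of Trem2 was highest in 5 of the authors' 26 excitatory clusters (Exc 1, 2, 11, 13 and 24), which were picked for their values. Trem2 was at 11.2 to 16.8 CPM in them and at 1.03 to 6.32 CPM in the other 21, while Tyrobp was at 1.44 to 4.11 CPM over all 26. In every adult library, of either treatment, Trem2 was higher in the 5 clusters (7.70 to 15.8 CPM) than in the other 21 (1.38 to 4.74 CPM). The clusters were picked on the pooled cells of these same libraries, so that order followed in part from the choice. The P21 libraries, which had not been used to pick the clusters, showed no such order, with 4.91, 0.678 and 1.79 CPM in the 5 clusters against 4.22, 1.57 and 1.97 CPM in the others, higher in 1 of 3. Counts were low there, with 108, 18 and 27 Trem2 UMIs over all excitatory neurons of P21 libraries 1 to 3. No other annotated gene of NCBIM37 overlapped Trem2, and the nearest, Treml1, lay 5768 bases away.

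**Figure D5:**
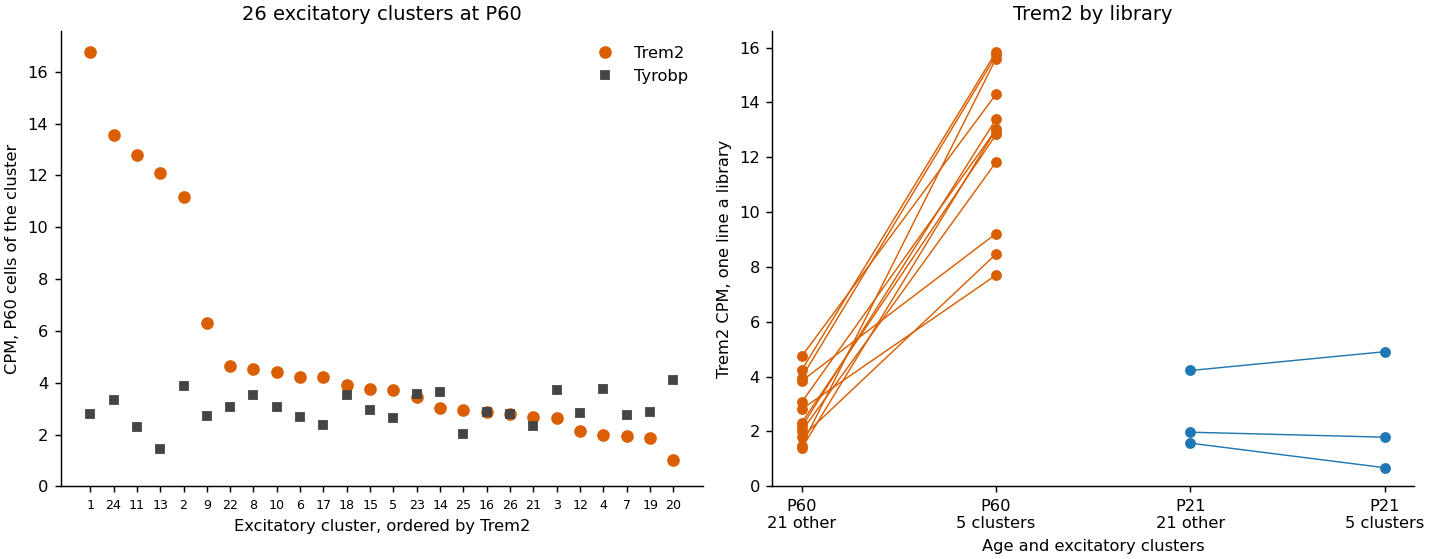
Left, Trem2 and Tyrobp (CPM) in the 26 excitatory clusters of the adult libraries. Right, Trem2 in the 5 clusters with the highest values and in the other 21, 1 line for each library. At P60 all 12 lines rise, from 1.38 to 4.74 CPM up to 7.70 to 15.8 CPM, and at P21 1 of 3 does.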

How the data were processed

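Single cells of mouse PFC were captured with the 10x Chromium platform, and the authors made the deposited UMI counts with Cell Ranger (its version differs between the sources used here and is left out) on mm9 with Ensembl NCBIM37 annotation. Using Seurat 2.1.0, they removed cells with few genes, high mitochondrial RNA or doublet-like gene numbers, and deposited a class and a cluster for each cell, so no doublet caller was run. The deposited mitochondrial fraction of a cell, given by the authors, entered no test.

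Raw counts were summed for each library and class with at least 10 cells, leaving out 13 mitochondrial and 143 ribosomal protein genes, and scaled to CPM. Tests used edgeR 4.0.16 in R 4.3.3 (TMM, filterByExpr, quasi-likelihood fit, Benjamini-Hochberg over all genes, adjusted p under 0.05 and over 1.5-fold). The age fit held 3 P21 and 6 P60 saline libraries, the cocaine fit all 12 P60 libraries in 6 groups. Intervals use 95% limits. Alternatives were DESeq2 1.42.0, other scalings, filters, cell choices and leaving out each library. Cells were thinned to 2000 UMIs for shares. Named genes were the 9 members, genes of lists of markers, ligands and signalling genes where called or discussed, and the 3 genes most like each member, of which 1 is not reported here. The members and lists were chosen with earlier results of these data known.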

Additional observations from a re-analysis of the deposited data

Results flagged for a closer look

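In 50 groups of 4 or more libraries, the highest or lowest library was compared with the others by Dixon's ratio of its gap to the group's range, which flags about 1 in 20 groups by chance, and 2 groups were flagged. Cx3cr1 in microglia was at 2186 CPM in cocaine library 1 of maintenance, while the other 3 libraries of that time point lay between 1586 and 1653 CPM (ratio 0.888). Trem2 in excitatory neurons was at 4.07 CPM in cocaine library 10 of 15 days, while the other 3 lay between 5.66 and 5.71 CPM (ratio 0.967).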

How the results depend on the processing

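In the age comparison of microglia all 9 genes stayed called higher with DESeq2 or its size factors, without the filter on low counts, without the fold threshold, with all genes kept in the sums, no cells with macrophage or leukocyte UMIs, all 12 P60 libraries, and without each library in turn. The last gave 1205 to 2318 genes called of all tested. In the main fit 1897 of 4478 genes were called (42.4%), so calls were common among all genes. The alternatives chosen after seeing the data changed the calls of the members. With matching class and cluster 0 members were called (26 genes in all), and Fcrls was at −0.039. Limited further to the 15 day saline libraries 0 were called (21 genes), with P2ry12 at −0.068 and Fcrls at −0.62. With the 15 day saline libraries alone in the whole class, 8 members were called, and 447 of all genes tested, against 1897 in the main fit. Scaled to 20 microglia markers, 1 member was called (3907 genes, median of all genes −2.21), lower, with Fcrls at −0.96, Cx3cr1 −0.57, Csf1r −0.38, P2ry12 −0.15, Tmem119 −0.12 and Tyrobp −0.038. With both, 1 was called (62 genes), with Fcrls at −0.82, Cx3cr1 −0.38, Csf1r −0.21, Tyrobp −0.14 and P2ry12 −0.087. In the 15 day comparison marker scaling left 0 members called (3080 genes, against 1556), with Cx3cr1 at 0.19, Siglech 0.093, Trem2 0.21 and Tyrobp 0.13, while DESeq2 called 999 genes. Csf1r, not called in the main fit of that comparison, was called lower in 9 of its alternatives. Of the other members, 6 calls were lost without a change of sign, those under marker scaling included. For cocaine in microglia 0 members were called under every alternative. In excitatory neurons leaving out each library gave 0 to 1 called members with age, dropping the fold threshold gave 5081 genes against 2376, and dropping the filter on low counts gave 1 called member for cocaine at 15 days (Tyrobp, lower). Across the alternatives 0 to 387 of all genes tested were called in the latter comparison. The cause of these changes was not tested. No paired analysis was possible because the labels give each library its own number. A minimum of 30 cells removed no library of the microglia class. In the matching P21 cells, 12 and 21 cells stand for 2 of the 3 libraries.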
